A study of Mus musculus with 12 samples.

Results

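The 38 genes described here encode the antigen-receptor signalling machinery and the transcription factors that mark mature B cells, from the receptor chains Cd79a and Cd79b to Pax5 and Ebf1. They were chosen by name as rows of a table of 23282 gene rows, each symbol standing on 1 row, and all 38 had enough counts to be tested among 11857 genes. Transcripts were counted in splenic B cells of C57BL/6 mice, genotype WT, aged 7 weeks, in 4 groups of 3 libraries. Control mice had no treatment. ODN mice received 50 µg of the class B CpG-ODN 1826, a synthetic DNA that is a ligand of the endosomal receptor TLR9, into the peritoneum on days 1 and 3. IM156 mice were injected on days 0 and 2, also into the peritoneum, with 30 mg/kg of IM156, a biguanide inhibitor of mitochondrial respiration, and ODN+IM156 mice received both agents on those days. Spleens of injected mice were taken on day 4. All mice are wild type in the sample labels, while the series description calls them lupus-prone. The labels name no vehicle, and effects of an agent and of its injection cannot be told apart. The labels do not say that the 3 libraries of a group come from separate animals, and p-values measure the spread between these libraries.

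The B-cell receptor signals through the Cd79a and Cd79b chains, whose tyrosine motifs are phosphorylated by Src-family kinases such as Lyn and Blk and then bind Syk. Syk acts with the adaptor Blnk and with Btk to activate phospholipase C gamma 2, calcium entry and protein kinase C beta, which leads through Bcl10 and Malt1 to NF-kB. Inhibitory receptors such as Cd22, Cd72 and Fcgr2b oppose this by bringing the phosphatases Ptpn6 and Inpp5d to the membrane, and Pax5, Ebf1 and partner factors keep the B-cell programme transcribed.

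Total counts per library lay between 9650775 and 11532525. The lowest count of any of the 38 genes in a library was 34 and the median was 3746, against a median of 258 over all genes tested, and squared differences between replicates were 4.294 to 22.19 times those of counting error (chi-square per degree of freedom, without Rn45s). ODN replicate 2 stood apart in its ribosomal RNA row, Rn45s, at 1.46% of counts against 4.78 to 9.63% in the other libraries. In ODN replicate 3 the X-inactivation transcript Xist had 1 count, and elsewhere 924 to 1320 CPM (a count as a share of the scaled library, in units of 1e-06). The labels give no sex, and whether the sex of the mice differs between libraries was not tested. Several calls below changed when ODN replicate 3 was left out. Markers of several other cell types moved with ODN, while no T-cell or plasma-cell marker was called. Over all genes tested, 7.34% were called higher and 3.25% lower in that comparison. Summed erythroid markers were 745 to 951 CPM in control and 177 to 324 in ODN, with 5 of 10 tested markers called lower. They summed to 168 to 645 CPM in IM156, with 0 called against control, and to 126 to 199 in ODN+IM156, with 5 called lower. Summed platelet markers were 29.5 to 46.1 CPM in control and 114 to 198 in ODN, with 7 of 7 called higher. NK-cell markers summed to 1.81 to 3.97 CPM in control and 15.3 to 21.2 in ODN, with 2 of 4 called higher. Neutrophil markers summed to 7.36 to 9.24 CPM in control and 24.4 to 90.8 in ODN, with 2 of 4 called higher. Of the markers of monocytes and macrophages 2 of 13, and of dendritic cells 1 of 9, were also called higher. No listed marker in the table was at 0 in all libraries, and the part of these cells in the values below was not tested.

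As a body, the 38 genes held nearly the same summed level in all groups, in CPM of the scaled library. Summed over the 38, control libraries held 17770 ± 305 CPM, ODN libraries 18060 ± 275, IM156 libraries 17460 ± 398 and ODN+IM156 libraries 17930 ± 355 (SD, n = 3). They took 1.7 to 1.83% of the unscaled counts of a library, with 1.79, 1.78 and 1.82% in control and 1.7, 1.8 and 1.73% in ODN. The scaled sums put ODN slightly above control, while ODN replicates 1 and 3 lay below all controls in this share. The median SD of a gene between replicates on the log2 scale was 0.09 for control, 0.14 for ODN, 0.064 for IM156 and 0.081 for ODN+IM156. Over all genes tested it was 0.16, 0.19, 0.13 and 0.13. All genes tested have lower counts than the 38 at the median, and the SD was not matched for count. Within a library, the median of the 38 log2 deviations from the control means ranged from -0.07 in IM156 replicate 3 to 0.05 in ODN+IM156 replicate 2.

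**Figure D1:**
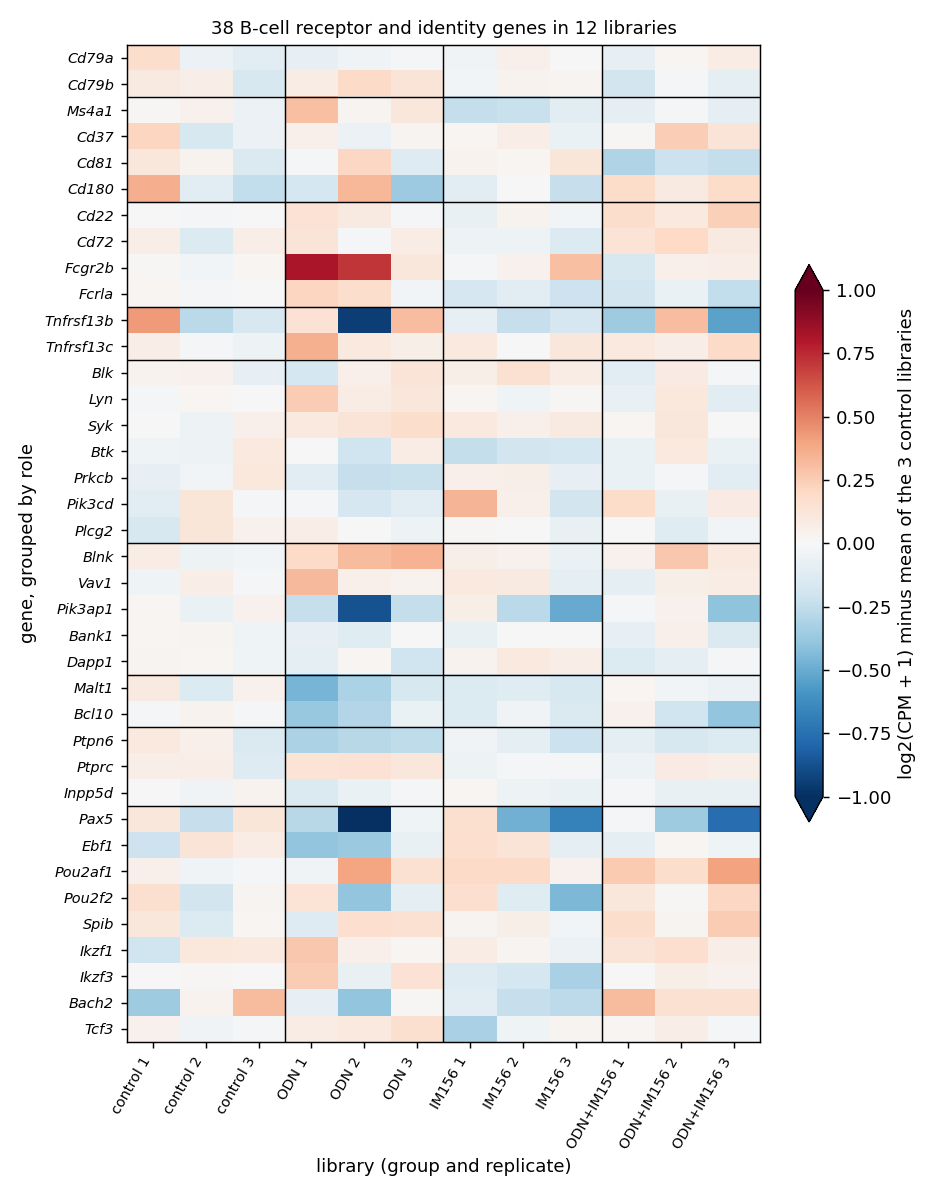
Log2 deviation of each of the 38 genes (rows, by role) from the mean of the 3 control libraries, in each of 12 libraries (columns, by group), on the scale log2(CPM + 1). Most cells are pale. Fcgr2b reaches 0.82 and 0.72 in ODN replicates 1 and 2, and Pax5 is lowest in ODN replicate 2 (-1.65), with -0.76 in ODN+IM156 replicate 3.

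ODN against control asks what the TLR9 ligand does to these transcripts. With edgeR's quasi-likelihood test and Benjamini-Hochberg adjustment over all genes tested, 2 of 38 genes rose (Fcgr2b and Blnk) and 2 fell (Malt1 and Ptpn6), at an adjusted p below 0.05. That is 10.5% of the 38, and 10.6% of all genes tested were called in the same comparison. DESeq2 called the same 4 genes, with 12.4% of all genes. At an unadjusted p below 0.05 there were 8 of 38 (21.1%, against 25.2% of all genes). The share called higher was 7.34% and the share called lower 3.25% over all genes. The median log2 fold change of the 38 genes was 0 and the range was -0.58 to 0.59. Of the 38, 34 lay within 0.3 of no change on the log2 scale, and the median size of change was 0.12 against 0.21 over all genes. The 38 have higher counts (median 3746 against 258), and genes of like count were not compared. The libraries of both groups did not overlap for 6 genes higher in ODN and 5 lower, against 13.2% and 11.3% of all genes. Fewer cells of a type and less RNA per cell cannot be told apart in such bulk samples.

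Neither antigen-receptor chain passed the test in any comparison. Cd79a, one of the signalling chains, stood at 743, 629.5 and 607 CPM in the control libraries, 619.5, 639.7 and 647 with ODN, 642, 679 and 658 with IM156 and 620.2, 665 and 690.2 with both. The ODN libraries lay inside the control range, and the log2 fold change was -0.05 (95% interval -0.24 to 0.13). Its partner Cd79b stood at 1557, 1528 and 1307 CPM in the control libraries, 1539, 1663 and 1599 with ODN, 1434, 1498 and 1486 with IM156 and 1287, 1445 and 1364 with both. ODN and control overlapped (log2 fold change 0.13, 95% interval -0.05 to 0.31), whereas the ODN+IM156 libraries were all below the ODN libraries (log2 fold change -0.23, adjusted p = 0.19, not past the threshold). Ms4a1, which encodes the surface protein CD20, was 1217 ± 43.2 CPM without treatment, 1352 ± 134 with ODN, 1066 ± 50.2 with IM156 and 1162 ± 32.8 with both (SD, n = 3). None of its comparisons passed the threshold, although the IM156 libraries did not overlap the controls and the ODN+IM156 libraries did not overlap the ODN libraries, both lying lower. The tetraspanin Cd81 was lowest in ODN+IM156, at 152, 162 and 159 CPM. Every one of these 3 values was below all 9 others, of which the lowest was 169.6 CPM. Against IM156 its log2 fold change was -0.31 (adjusted p = 0.0878). Cd37, another tetraspanin, and Cd180, a Toll-like receptor relative, overlapped between ODN and control, with log2 fold changes of 0 and -0.06. Reads of Cd37, Cd180 and Cd72 near their 3' ends can overlap Tead2, Mast4 and Tesk1 on the opposite strand, and the strand rule of the counting is not given in the sources used here.

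Among the inhibitory receptors, Fcgr2b moved most with ODN. Fcgr2b, the inhibitory Fc receptor for IgG complexes, lies on GRCm38 chromosome 1 at 170958617 to 170976547 on the minus strand. It stood at 68.2, 66.1 and 68.4 CPM in the control libraries, 119.9, 112 and 73 with ODN, 67, 69.7 and 83.5 with IM156 and 60.5, 69.97 and 70.9 with both. The ODN libraries were all above the controls, but replicates 1 and 2 carried the rise and replicate 3 lay only just above the control range and below the highest IM156 library. The gene rose 1.5-fold (log2 fold change 0.59, SE 0.14, adjusted p = 0.00993), and without ODN replicate 1 the adjusted p was 0.0533. The ODN+IM156 libraries all lay below the ODN libraries (log2 fold change -0.6, SE 0.14), at adjusted p = 0.0622, just outside the threshold. Leaving out ODN replicate 3 gave -0.78 with an adjusted p of 0.000743. That was the only call in 12 fits that each left out 1 library. Over those fits the value ran from -0.78 to -0.46, with adjusted p up to 0.3. Monocytes and macrophages also express Fcgr2b. Their summed markers were 109, 102 and 58.6 CPM in the 3 ODN libraries, in the same order as Fcgr2b, against 49.1, 48.3 and 91.8 in control. In the IM156 libraries the same markers were 94.15, 83.48 and 50.41 CPM, in the opposite order to Fcgr2b. In ODN+IM156 those markers stood at 142, 82.7 and 121 CPM, while Fcgr2b lay between 60.5 and 70.9 CPM. Neutrophil markers were also highest in ODN replicate 1, the library with the highest Fcgr2b level, at 90.8 CPM, against 24.4 and 27 in the other ODN libraries. The part of any of these cells in the Fcgr2b level was not tested.

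The other receptors of this kind moved little. Cd22, a sialic-acid-binding inhibitory receptor, stood at 597, 589 and 597 CPM in the control libraries, 657, 634 and 591 with ODN, 565, 610.2 and 584 with IM156 and 672, 636 and 702 with both. The ODN+IM156 libraries were all above both control and IM156 (log2 fold change 0.17 against control, adjusted p = 0.37). Cd72, a receptor that recruits Ptpn6, was likewise higher in every ODN+IM156 library than in any control or IM156 library (log2 fold change 0.22 against IM156, adjusted p = 0.198). Fcrla, an intracellular relative of the Fc receptors, stood at 466, 455 and 462 CPM in the control libraries, 534, 522 and 452 with ODN, 410.1, 426 and 399 with IM156 and 406, 439.5 and 389 with both. Every library of both IM156-treated groups lay below every library of the control and ODN groups. Its log2 fold change was -0.29 for ODN+IM156 against ODN (adjusted p = 0.0976) and -0.23 for IM156 averaged over both ODN states (adjusted p = 0.363). Neither passed the threshold over all genes tested. Of the receptors for the survival factors BAFF and APRIL, Tnfrsf13c was 398 ± 16.8 CPM in control and 451 ± 51.9 in ODN (adjusted p = 0.225), and Tnfrsf13b 29.7 ± 8.37 and 27.6 ± 11.5 (adjusted p = 0.845), with n = 3 and groups that overlapped in both.

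**Figure D2:**
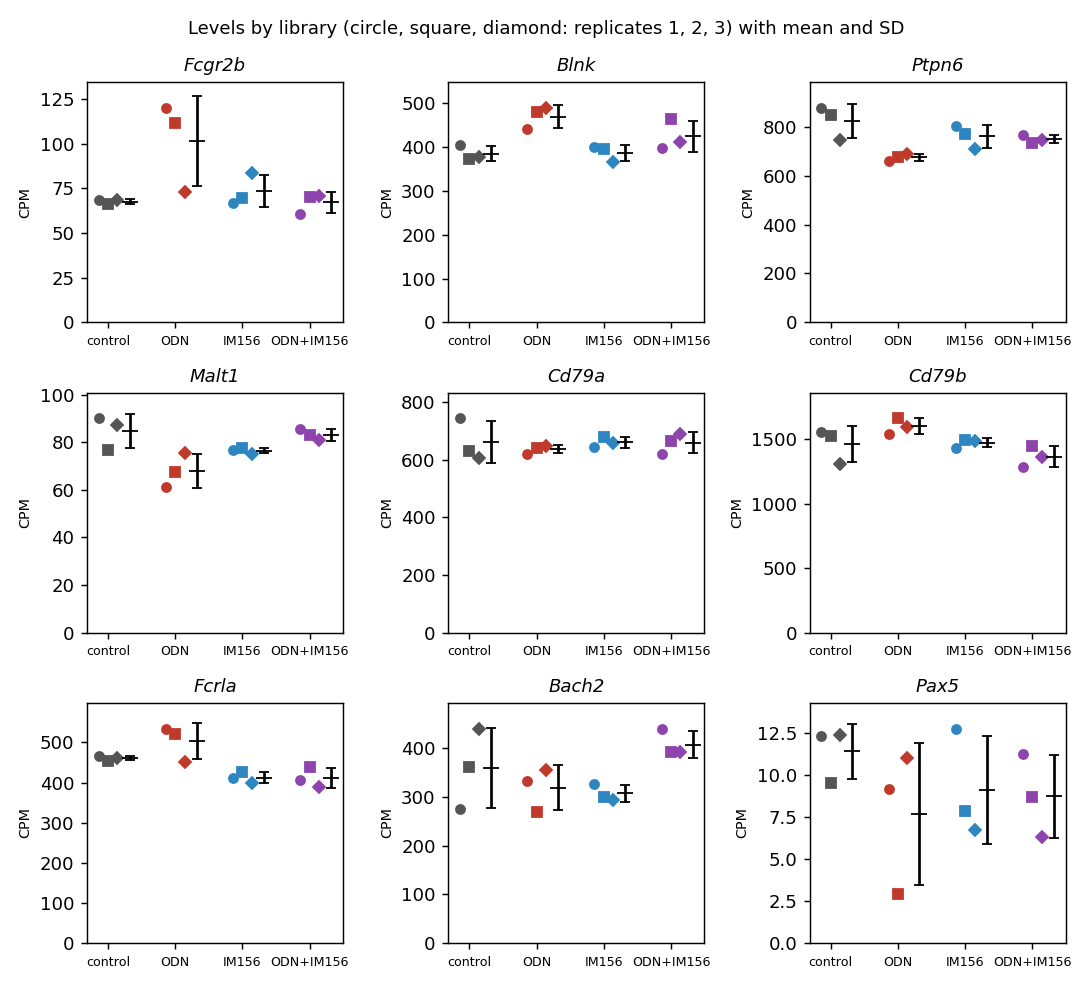
Level in CPM (linear axis from 0) of 9 genes in each library by group, with mean and SD of 3 libraries as the bar beside the points. Fcgr2b is at 119.9, 111.6 and 73 CPM in ODN and at 60.47 to 83.5 CPM in the other 9 libraries, while Cd79a overlaps in all 4 groups.

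With the settings as reported, none of the 7 kinases and lipid enzymes was called in any comparison. Syk, the kinase that docks on the phosphorylated receptor chains, stood at 323, 311 and 336 CPM in the control libraries, 346, 354 and 365 with ODN, 345, 335 and 345 with IM156 and 328, 349 and 324 with both. The ODN libraries were all above the controls by a small margin (log2 fold change 0.13, 95% interval -0.03 to 0.3, adjusted p = 0.288). Btk, the kinase that activates phospholipase C gamma 2, stood at 173, 172 and 191 CPM in the control libraries, 178, 155 and 188 with ODN, 152, 157 and 158 with IM156 and 171, 191 and 171 with both. IM156 libraries were lower than every control and every ODN+IM156 library (log2 fold change -0.2 against control, unadjusted p = 0.0371, adjusted p = 0.999), and ODN did not separate from control. Lyn, which also phosphorylates the inhibitory receptors, was above all controls in the ODN libraries at 747, 661 and 679.5 CPM (adjusted p = 0.278). Prkcb, protein kinase C beta, was below all controls there, at 1474, 1351 and 1356 CPM (adjusted p = 0.162). Blk, the phosphatidylinositol kinase subunit Pik3cd and Plcg2 overlapped between these groups, with log2 fold changes of 0.01, -0.1 and 0.

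Blnk, the adaptor that gathers Btk and phospholipase C gamma 2 around Syk, rose with ODN. It lies on chromosome 19 at 40928927 to 40994535 (minus strand) and stood at 405, 372 and 377 CPM in the control libraries, 440.5, 479.7 and 489 with ODN, 399.7, 396 and 367 with IM156 and 397, 464 and 412 with both. All ODN libraries exceeded all controls, and the gene rose 1.22-fold (log2 fold change 0.29, SE 0.086, adjusted p = 0.038). Over both IM156 states the ODN effect on Blnk was 0.21 on the log2 scale (SE 0.061, adjusted p = 0.0289), the single call among the 38 in that average (2.63%, against 12.2% of all genes tested). That call held in 6 of 12 fits that each left out 1 library (adjusted p 0.0189 to 0.0971), and with library totals alone Blnk was not called (adjusted p = 0.11) while Prkcb, Ptpn6 and Ebf1 were called lower. DESeq2 called Blnk and Ptpn6 there, with 14.3% of all genes. Ikzf3 and Ptpn6 followed it, at log2 values of 0.18 (adjusted p = 0.0765) and -0.15 (adjusted p = 0.104), and 11 of 38 had an unadjusted p below 0.05 (28.9%, against 25.7% of all genes). The Blnk call against control held in 5 of 12 fits that each left out 1 library (control 1, ODN 1, IM156 3, ODN+IM156 1 or ODN+IM156 2), with adjusted p 0.0355 to 0.114 over the 12. It was lost when libraries were scaled by their totals alone (adjusted p = 0.119), with a replicate block (adjusted p = 0.0528) and with only the groups compared (adjusted p = 0.152), with the direction the same throughout. Pik3ap1, an adaptor for phosphatidylinositol 3-kinase, was lower in all ODN libraries than in any control, at 20.9, 13.1 and 20.8 against 25.1, 23.6 and 25.6 CPM (adjusted p = 0.141). The exchange factor Vav1 and the scaffolds Bank1 and Dapp1 overlapped, with log2 fold changes of 0.14, -0.07 and -0.09.

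In the Bcl10 and Malt1 bridge to NF-kB, each ODN library was lower than every control for both genes, and Malt1 passed the test. Malt1, a protease and scaffold on chromosome 18 at 65430938 to 65479067 (plus strand), stood at 90.05, 76.7 and 87.1 CPM in the control libraries, 61, 67.4 and 75.3 with ODN, 76.7, 77.5 and 75.2 with IM156 and 85.5, 82.9 and 80.8 with both. The ODN libraries were below all controls and below all ODN+IM156 libraries. Malt1 fell against control (log2 fold change -0.32, SE 0.096, adjusted p = 0.0404), and ODN+IM156 against ODN gave 0.29 (adjusted p = 0.138). These comparisons share the ODN libraries. The Malt1 call held in 2 of 12 fits without 1 library (control 2 or ODN 3; adjusted p 0.0103 to 0.169 over the 12), the fewest among the 4 genes called. It was also lost with a replicate block (adjusted p = 0.0559) and with only the groups compared (adjusted p = 0.16). Bcl10, the adaptor that binds Malt1, stood at 109, 113 and 108 CPM in control and 84.8, 89.7 and 105 in ODN, with no overlap (log2 fold change -0.24, adjusted p = 0.159).

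Of the 3 phosphatases, Ptpn6 fell with ODN. Ptpn6 encodes SHP-1, the tyrosine phosphatase recruited by inhibitory receptors, on chromosome 6 at 124720707 to 124738714 (minus strand), and stood at 876, 848 and 744 CPM in the control libraries, 661, 676 and 688 with ODN, 803, 771 and 709 with IM156 and 768, 735 and 747 with both. ODN libraries lay below all 9 others, and the gene fell against control (log2 fold change -0.29, SE 0.085, adjusted p = 0.0358). The call held in 5 of 12 fits without 1 library (control 3, ODN 3, IM156 1, IM156 3 or ODN+IM156 2), and the adjusted p over the 12 was 0.0206 to 0.107. With only the groups compared it was lost (adjusted p = 0.154). Inpp5d, the lipid phosphatase SHIP1, differed little, at 114, 112 and 117 CPM in control and 103, 109 and 113 in ODN (95% interval -0.24 to 0.09 for the log2 fold change). Ptprc, the receptor phosphatase CD45 that activates Src-family kinases, was above all controls in the ODN libraries, at 1886, 1895 and 1850 against 1792, 1791 and 1567 CPM (adjusted p = 0.343).

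The sequences before the starts of the phosphatase genes Ptpn6, which was called, and Inpp5d, which was not, are shown from the RefSeq promoter table (GRCm38.p6), 5′ to 3′ on the gene's strand. They are chr6:124738715-124738959 (minus strand, 245 bases) and chr1:87620062-87620311 (plus strand, 250 bases). For Ptpn6 the 5 bases next to the RefSeq start lie inside a GENCODE exon and are not shown, and positions below count from the RefSeq starts. Capitals mark matches to the Ikaros core TGGGAA or the PU.1 and Spi-B motif GAGGAAGT on either strand.
Ptpn6: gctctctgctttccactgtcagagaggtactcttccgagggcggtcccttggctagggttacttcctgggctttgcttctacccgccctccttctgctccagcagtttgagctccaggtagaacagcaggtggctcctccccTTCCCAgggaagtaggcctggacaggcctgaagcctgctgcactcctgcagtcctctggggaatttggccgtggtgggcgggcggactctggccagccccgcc
Inpp5d: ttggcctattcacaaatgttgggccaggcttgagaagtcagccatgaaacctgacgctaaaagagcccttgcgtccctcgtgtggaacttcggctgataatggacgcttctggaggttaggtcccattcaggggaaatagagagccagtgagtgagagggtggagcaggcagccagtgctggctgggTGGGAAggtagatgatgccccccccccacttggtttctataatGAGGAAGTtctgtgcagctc
The Ptpn6 match is TTCCCA, the Ikaros core read on the other strand, at 108 to 103 bases before the RefSeq start. Inpp5d holds the Ikaros core at 63 to 58 bases and GAGGAAGT at 20 to 13 bases. Over the 39 promoters found for 32 of the 38 genes, the 250 bases before the start held the Ikaros core in 25.6%, against 21.6% of 32851 promoters. These and the following shares are of promoters and not of genes. Some genes have several promoters, and both Cd180 windows overlap and hold the same Ikaros match. GAGGAAGT was in 10.3% (Cd37, Cd72, Inpp5d and Vav1) against 2.44%, and the octamer ATTTGCAT in 5.13% (Blnk and Prkcb) against 1.6%. The E-box CAGCTG was in 7.69% against 13%. The EBF motif, TCCC and GGGA held 2 bases apart, was in 2.56% (Cd22) against 0.779%. A match is a description of letters, and genes that share a match did not all move: Blnk was called higher in ODN, while Prkcb, with the same octamer, was below all controls without passing the test.

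With the settings as reported, transcription factors that define the lineage were not called in any comparison. Pax5, which holds cells to the B lineage, stood at 12.3, 9.53 and 12.4 CPM in the control libraries, 9.16, 2.92 and 11 with ODN, 12.8, 7.85 and 6.74 with IM156 and 11.2, 8.67 and 6.29 with both. Its log2 fold change with ODN was -0.58 (SE 0.35, adjusted p = 0.316), and ODN replicate 2 lay far below the rest. That library also had the lowest Rn45s share. Over the 12 libraries the Pax5 level correlated with that share (Pearson's r = 0.92, given below), and the cause was not tested. Ebf1, the early B-cell factor, was 621 ± 75.4 CPM in control and 512 ± 65.9 in ODN (adjusted p = 0.109), and it was called lower when libraries were scaled by their totals alone and in the fits without control replicate 1 or ODN replicate 3, in this comparison and in the averaged ODN effect. Bach2, which restrains plasma cell differentiation, stood at 276, 361 and 441 CPM in the control libraries, 333, 269 and 357 with ODN, 327, 301 and 294 with IM156 and 439, 391.7 and 392.3 with both. The ODN+IM156 libraries exceeded all IM156 and all ODN libraries but not all controls, whose own range was wide. Its log2 fold change was 0.41 against IM156 (adjusted p = 0.12) and 0.35 against ODN (adjusted p = 0.185). With every gene of at least 1 count, Bach2 was called higher in both comparisons and in the interaction. With only the groups compared, it was called higher against IM156. Ikzf3, Aiolos, was lower in all IM156 libraries, at 148, 144 and 129 CPM, than in any other library (adjusted p = 0.999 against control, adjusted p = 0.192 for ODN+IM156 against IM156). It was called higher in ODN+IM156 against IM156 with only the groups compared, and in the averaged ODN effect without ODN replicate 2. Pou2af1, the octamer coactivator, was 668 ± 21.1 CPM in control and 812 ± 64.3 in ODN+IM156, with no overlap (log2 fold change 0.28, adjusted p = 0.206). It was called higher in the averaged ODN effect without ODN replicate 1. Pou2f2, Spib, Ikzf1 and Tcf3 had log2 fold changes of -0.11, 0.07, 0.11 and 0.11 with ODN, and of these Tcf3 was higher in every ODN library than in any control.

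**Figure D3:**
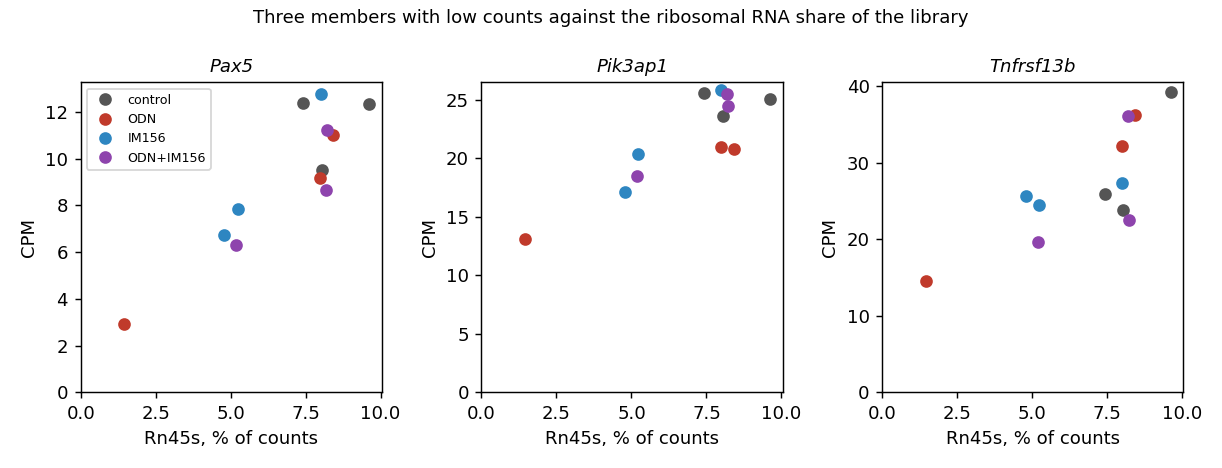
Level in CPM of Pax5, Pik3ap1 and Tnfrsf13b against the Rn45s share of the library in percent, 1 point per library coloured by group. ODN replicate 2, at 1.46% Rn45s, is lowest for all 3 genes, with Pax5 at 2.92 CPM.

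IM156 alone gave no change among the 38 genes that passed the test. With edgeR no gene was called (0% of all genes tested), and 3 of 38 had an unadjusted p below 0.05 (Ikzf3, Btk and Ms4a1, all lower), or 7.89% against 3.7% of all genes tested. DESeq2 called 0 of the 38 (0.0169% of all genes). The log2 fold changes ran from -0.33 to 0.14 with a median of -0.02. Libraries did not overlap for 2 genes higher (Blk and Dapp1, 5.16% of all genes) and 5 lower (Ms4a1, Fcrla, Btk, Bcl10 and Ikzf3, 5.25% of all genes).

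Adding IM156 to ODN likewise gave no edgeR call among the 38 against ODN alone, with 0.0675% of all genes tested called. That share depended on 1 library: without ODN replicate 3 it was 6.57%, with 4 of the 38 called (Cd81, Fcgr2b and Fcrla lower, Malt1 higher). No other fit without 1 library called any of the 38. At an unadjusted p below 0.05 there were 8 of 38 (21.1%, against 16.2% of all genes), led by Fcgr2b, Fcrla and Malt1. DESeq2 called 2, Fcgr2b (adjusted p = 0.00577) and Fcrla (0.0197), with 3.15% of all genes called. Libraries did not overlap for 4 genes higher in ODN+IM156 (9.07% of all genes), namely Prkcb, Malt1, Ptpn6 and Bach2. For 7 genes they were lower (10% of all genes), namely Cd79b, Ms4a1, Cd81, Fcgr2b, Fcrla, Ptprc and Tcf3. Against control, ODN+IM156 gave no call (1.59% of all genes), and the smallest p-values were those of Pou2af1, Cd81 and Cd22, with 3 of 38 below 0.05 unadjusted (7.89%, against 12.9% of all genes). DESeq2 called 0 there (2.73% of all genes). Separated from control were 3 genes higher (10.2% of all genes) and 2 lower (9.12%). Against IM156 it gave no call either (2.47% of all genes). There 6 of 38 were below 0.05 unadjusted (15.8%, against 14.4% of all genes), led by Cd81, Bach2 and Ikzf3, with DESeq2 calling 1, Cd81 (adjusted p = 0.0439, with 3.69% of all genes called), and the libraries were apart for 8 genes higher (12.8% of all genes) and 2 lower (11.8%).

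**Figure D4:**
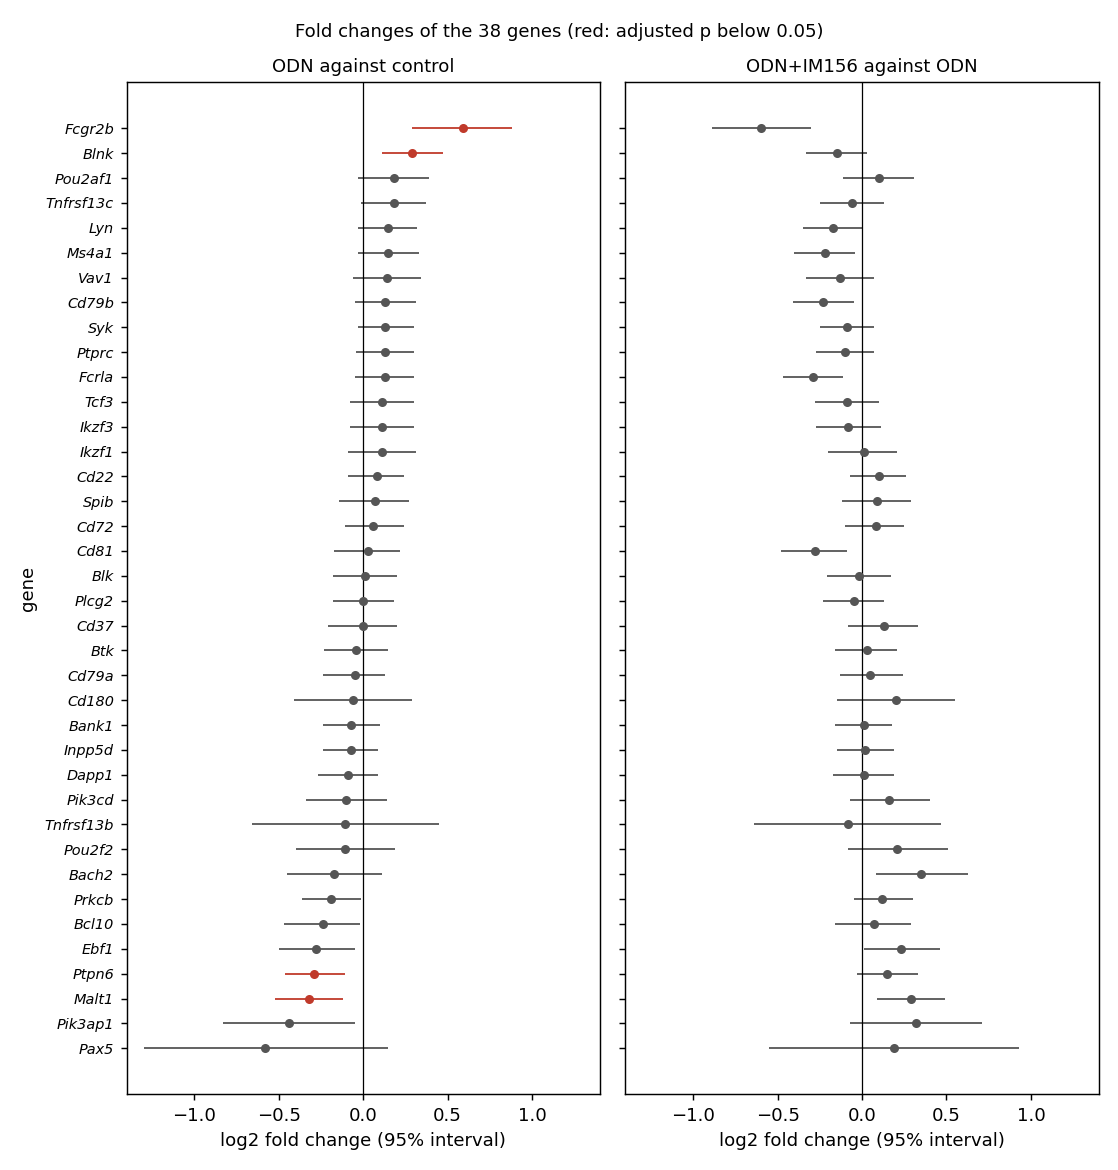
Log2 fold change with 95% interval for each of the 38 genes (rows) for ODN against control (left) and ODN+IM156 against ODN (right), which share the ODN libraries. Red marks are calls at an adjusted p below 0.05: Fcgr2b and Blnk higher and Malt1 and Ptpn6 lower with ODN, and none on the right.

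Whether IM156 changed the response to ODN was tested with the interaction, which subtracts the IM156 effect in mice without ODN from that in mice given ODN. No gene of the 38 was called (0% of all genes tested), and 6 had an unadjusted p below 0.05 (15.8%, against 12.3% of all genes). Fcgr2b had the smallest, at a log2 value of -0.72 (SE 0.2, unadjusted p = 0.00188, adjusted p = 0.154). Malt1 followed at 0.44 (adjusted p = 0.2) and Bach2 at 0.58 (adjusted p = 0.218). DESeq2 called Fcgr2b (adjusted p = 0.0262), with 1.39% of all genes called. Without ODN replicate 3 edgeR called Fcgr2b (-0.9, adjusted p = 0.00722) and Malt1 (0.53, adjusted p = 0.0478), with 2.15% of all genes called. Of the 12 fits that each left out 1 library, only that 1 called either gene. The highest adjusted p was 0.413 for Fcgr2b and 0.437 for Malt1. The ODN effects without and with IM156 rest on separate libraries. Fcgr2b was 0.59 without and -0.13 with IM156, Malt1 -0.32 and 0.12, Ptpn6 -0.29 and -0.02, and Blnk 0.29 and 0.13. Blnk and Ptpn6 had the same sign in both, Ptpn6 near 0 with IM156, and Fcgr2b and Malt1 opposite signs. With IM156 the intervals of all 4 genes included 0: Fcgr2b -0.43 to 0.17, Malt1 -0.08 to 0.32, Ptpn6 -0.2 to 0.16 and Blnk -0.05 to 0.31. The signs with IM156 are therefore not established. These 4 genes were picked as called without IM156, so smaller values with IM156 cannot show a changed response. Averaged over both ODN states, IM156 gave no call among the 38 with edgeR (0.0169% of all genes tested) or DESeq2 (0.143%), and 4 were below 0.05 unadjusted (10.5%, against 8.17% of all genes). Fcrla, Ms4a1 and Fcgr2b had the smallest p-values, at log2 values of -0.23, -0.21 and -0.24.

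**Figure D5:**
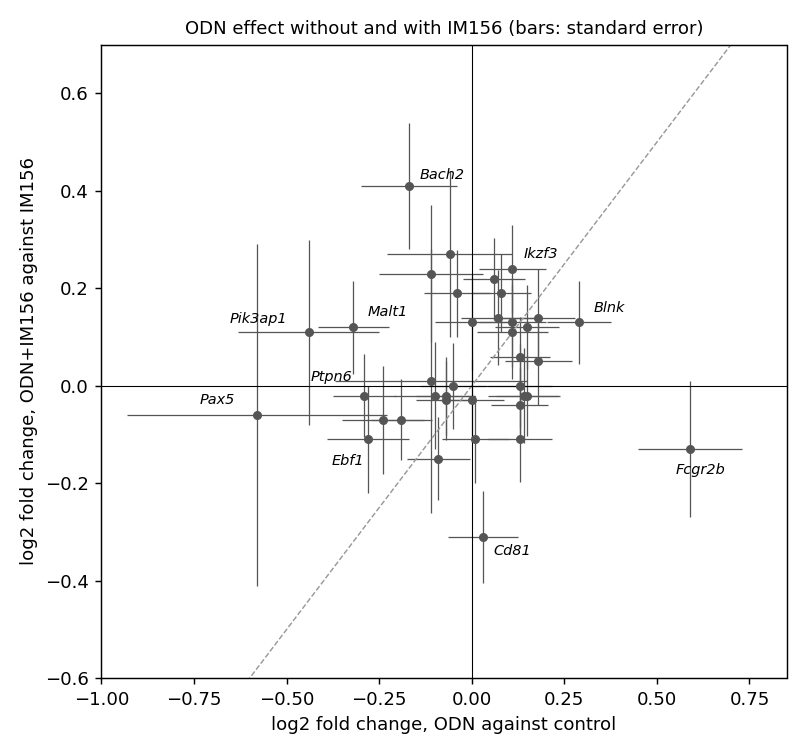
Log2 fold change of each of the 38 genes with ODN in mice without IM156 (x axis) and in mice given IM156 (y axis), with standard errors as bars and the line of equal effects dashed. Fcgr2b lies at 0.59 and -0.13, Bach2 at -0.17 and 0.41, and Blnk at 0.29 and 0.13.

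The wider pathway was read from a list of 110 other genes of receptor signalling and B-cell transcription, of which 109 were tested. With ODN, 4 rose and 6 fell (9.17%, against 10.6% of all genes tested). The 6 named by size were Id2, Cd83, Fcer2a, Id3, Sla2 and Irf8. Id2, an inhibitor of E proteins such as Tcf3, went from 91.4 ± 2.91 to 149.7 ± 17.6 CPM (SD, n = 3, log2 fold change 0.71, adjusted p = 0.000188). Its relative Id3 fell, from 117 ± 24.7 to 82.4 ± 5.62 CPM (log2 fold change -0.51, adjusted p = 0.0136). The activation marker Cd83 rose from 226 ± 23.4 to 356 ± 64.6 CPM (adjusted p = 0.001), and Fcer2a, the low-affinity IgE receptor of follicular B cells, fell from 341 ± 62.7 to 226 ± 12.2 CPM (adjusted p = 0.00104). The adaptor Sla2 and the factor Irf8 rose by 0.4 and 0.36 on the log2 scale. Ets1, Cd2ap and Prkcd were also called lower. IM156 against control, ODN+IM156 against ODN and the interaction gave 0 edgeR calls of 109, with 6, 14 and 14 genes at an unadjusted p below 0.05 (5.5, 12.8 and 12.8%, against 3.7, 16.2 and 12.3% of all genes). In ODN+IM156 against control, 3 rose (Sla, Irf8 and Id2) and Fcer2a was among those that fell, with 1.59% of all genes called. Sla overlaps Tg on the opposite strand. Against IM156, where 2.47% of all genes were called, Irf8 rose and Ikbkb fell.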

How the data were processed

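RNA-seq libraries were made with a 3' end kit (QuantSeq), per the labels' protocols. The authors deposited 1 table of raw counts per gene, with no gene length; per the submitters' processing notes the tools were Bowtie2, bedtools and edgeR with GRCm38 (mm10), in versions not given in the sources used here. The table also holds 12 columns of normalized values, 4 of group averages, 6 of fold changes and 6 of p-values, which were not used. Of 23282 rows, 5883 had no count. Counts were analysed in R 4.3.3 with edgeR 4.0.16: filterByExpr left 11857 genes, libraries were scaled by TMM, and the quasi-likelihood model took all 12 libraries, each group with its own mean (8 residual degrees of freedom). Tests were two-sided, adjusted by Benjamini-Hochberg over all genes tested, with calls at an adjusted p below 0.05. Intervals are at 95%. Levels are CPM of the scaled library and are not compared between genes. DESeq2 1.42.0 was run beside it, and the scripts were tested on simulated data.

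The 38 genes, the pathway and marker lists and the rules were chosen with earlier results of these data known. Values in every library are given for genes called in any comparison and for Cd79a, Cd79b, Cd22, Syk, Btk and Pax5. The 3 of smallest p are named in each comparison. Other pathway genes called are named for up to 6 of largest change whose mean reached 10 CPM, and an item of the pathway list is not reported here. Other genes given with library values or group means, such as Cd81, Bach2, Fcrla, Ikzf3, Lyn, Prkcb and Bcl10, were chosen after their values were seen, and the rest are given by fold change or count. Replicate numbers did not pair the libraries. Alternatives covered scaling, filtering, tool, robust fitting, groups in the fit, a replicate block and each library left out. Gene positions come from GENCODE (GRCm38) and promoter sequences from RefSeq (GRCm38.p6).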

Additional observations from a re-analysis of the deposited data

How the results depend on the processing

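The 25 single-gene log2 values followed were picked in these same data, as genes called or of the 3 smallest p in a comparison. Each kept its sign under the alternatives run. These alternatives reuse the same libraries, so kept signs are not independent support. Of the count results under alternatives, 115 stayed within 1.5 times and 34 moved. Counts of 0 that stayed 0 made up most of the 115. In the comparisons with a call as reported, more counts moved than stayed. Of single-gene results, 405 kept their side of the threshold, 38 lost and 23 gained a call. Most of the 405 were uncalled values that stayed uncalled. The 38 losses all came from the few values called as reported. The number of the 38 genes called with ODN against control was 4, and became 2 with a replicate block (9.74% of all genes called) and 1 with only the groups compared fitted (5.23%). ODN+IM156 against ODN went from 0 to 2 with every gene of at least 1 count (3.82% of all genes), 2 with DESeq2 (3.15%) and 1 with robust fitting (1.05%). There the calls over all genes went from 6 higher and 2 lower to 143 and 230 with DESeq2, 42 and 82 with robust fitting, 219 and 445 with every gene, and 267 and 527 without ODN replicate 3. ODN+IM156 against IM156 went from 0 to 2 with every gene (3.75%), 1 with DESeq2 (3.69%) and 4 with only the groups compared (7.76%), against 2.47% as reported. The interaction went from 0 to 2 with every gene (1.59%) and 1 with DESeq2 (1.39%). The averaged ODN effect went from 1, Blnk higher, to 3 with library totals (Prkcb, Ptpn6 and Ebf1, all lower, 14.2%), 2 with every gene (Fcgr2b and Blnk, 10.3%) and 2 with DESeq2 (Blnk and Ptpn6, 14.3%). Leaving out each library gave 1 to 5 for ODN against control, 0 to 4 for ODN+IM156 against ODN, 0 to 2 for the interaction, 0 to 3 for the averaged ODN effect, 0 to 2 for the averaged IM156 effect and 0 to 0 for the other three. The 5, the 4, the 3 and both counts of 2 came without ODN replicate 3. With library totals alone, calls over all genes were 695 higher and 720 lower with ODN, against 870 and 385, with the median of all genes at -0.07. Replicate numbers did not pair libraries: 0 of 18 same-numbered pairs had r above 0.1 (-0.11 to 0.09), and 2 of 12 libraries correlated best with their own number. Fcgr2b was called with ODN in 11 of 12 fits without 1 library. The causes were not tested.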

Other observations

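The log2 level of each of the 38 genes was correlated with the Rn45s share of the library over the 12 libraries, 38 relations in all. Pearson's r was at least 0.8 for 3 genes, against 0.81% of the 11856 genes tested apart from Rn45s, the 38 among them. These 3 genes have the lowest mean counts of the 38, and the share over all genes was not matched for count. Pax5 had r = 0.92 (permutation p = 0.00019, Benjamini-Hochberg adjusted 0.00722) and Spearman's rho 0.67 (permutation p = 0.0204, adjusted 0.455). Without ODN replicate 2 and IM156 replicate 3, the libraries farthest from the median share, r was 0.76, and within groups it was 0.95. Pik3ap1 had r = 0.9 (adjusted 0.0103), 0.67 without those libraries and 0.93 within groups. Tnfrsf13b had r = 0.82 (adjusted 0.0157), 0.71 without them and 0.86 within groups. The rank correlations did not pass adjustment. The association was tested by permutation, but whether the Rn45s share causes these levels was not tested.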
